A study of Mus musculus with 4 samples.

Results

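The rim of a mouse ovary section, the outermost layer of capture spots on the tissue, was compared with the interior of the same section in spatial transcriptomes of young and aged ovaries. A capture spot is a small patch of barcoded primers on a glass slide that collects the RNA of the cells above it, so each spot holds transcripts of several cells. Spots lie on a hexagonal grid. A spot was placed in the rim when at least 1 of its 6 neighbouring positions had no spot in the count tables, and in the interior when all 6 were filled. This gave 1010 rim spots of 4191 (24.1%) and 3181 interior spots. The rule uses positions alone and no expression value.

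The study covered outbred CD-1 female mice, 4 young (3 to 4 months) and 4 aged (15 to 16 months), with 1 frozen ovary section of 10 µm per animal. No other treatment or allele is named for either group. There were 4 capture areas of 6.5 mm, permeabilized for 18 min, and each held 1 young and 1 aged section side by side, numbered here 1 to 4 within each age after their capture area. The labels give the side of the area on which each age lay, and this was read on the image as deposited. Were the image turned upside down, young and aged would trade places in each area, and this would touch the comparisons of ages but not those of rim with interior. CD-1 is an outbred stock, so the 4 animals of a group differ in genotype as well.

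The mouse ovary is covered by a single layer of epithelial cells of mesothelial origin, which carries keratins, mesothelin and uroplakins and is broken and repaired at each ovulation. Beneath it lies a cortex with small follicles, while large follicles, corpora lutea (the steroid-secreting bodies left after ovulation), blood vessels and stroma fill much of the rest. Outside it, the bursa, fat, the ligaments and the oviduct touch the ovary and can stay on a section. A rim spot may therefore hold surface cells, the cortex under them and pieces of adjoining tissue.

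Rim spots numbered 113, 184, 155 and 119 in young sections 1 to 4, and 99, 123, 85 and 132 in aged sections 1 to 4. They made up 15.6% to 33.1% of the spots of a section, the share being highest in aged sections 1 and 3. Of all rim spots, 842 lay on the outer contour and 168 touched only a hole, meaning an enclosed position without counts. Such a position need not be a gap in the tissue, as 72 tissue-marked spots had no counts. With neighbours taken from all tissue-marked spots the rim numbered 908. It then went from 113 to 92 spots in young section 1 and from 123 to 96 in aged section 2. In 330 rim spots 1 neighbour was missing and in 680 at least 2 were missing. In capture area 2, 24 spots lay at the border of the array, where the tissue ran on past the capture area, and these count as rim by the rule. Young section 3 was in 8 pieces, with 15 spots outside the largest, and the sections together had 27 spots outside their largest piece. Behind the interior edge, 857 spots formed the second ring, 759 the third and 641 the fourth, and 924 lay deeper.

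**Figure D1:**
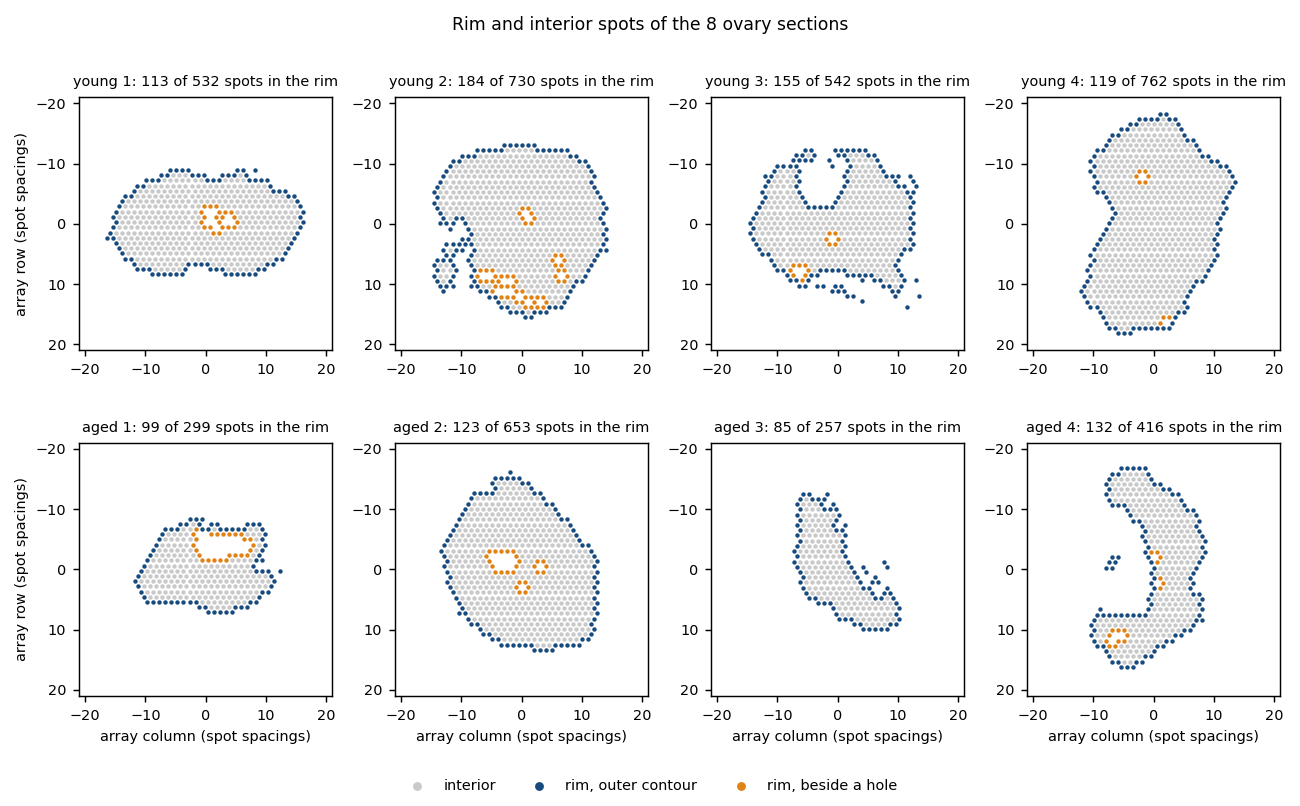
Spots of the 8 sections on the hexagonal grid, axes in grid units. Interior spots are grey, rim spots on the outer contour blue and rim spots beside a hole only orange, a hole being an enclosed position without counts. Young section 2 has the most hole spots (55) and aged section 3 has none.

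Rim sums held between 854258 unique molecular identifiers (UMIs, counts of distinct captured transcripts) in aged section 3 and 5824995 in young section 2, and interior sums between 1923690 and 15794237. The rim held 24.1% of all UMIs. Transcripts that define the ovary were present in every section: over whole sections Inha, a granulosa cell hormone subunit, was at 791 to 3406 CPM (counts scaled to a total of 1000000 per sum) and Akr1c18, the progesterone-degrading enzyme of regressing luteal cells, at 2033 to 10137 CPM. Zp3, a coat protein of the oocyte, was at 4.34 to 92.2 CPM, and Amh, the hormone of growing follicles, at 0 to 11.2 CPM, with 0 in young section 3 and aged section 1. Tissue from outside the ovary differed between sections: the oviduct glycoprotein Ovgp1 was at 1.52 to 53.7 CPM and the fat cell hormone Adipoq at 0 to 7.20 CPM, highest in aged section 3. The capture areas shared 234 to 723 spot barcodes with one another, since every area carries the same barcode set, and spots were therefore kept apart by area.

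Across the transcriptome, a small part of the genes differed between rim and interior, and the called changes were larger upward than downward. Of 12119 genes tested, 245 were higher at the rim (2.02%) and 161 lower (1.33%), together 3.35%, at an adjusted p under 0.05. The called genes that were higher had a median log2 fold change of 0.70 and those lower a median of -0.33, beside a median of -0.0031 over all genes. Among the higher calls 77 reached a log2 fold change of at least 1, and among the lower calls only Gm47428 (-1.05), named after its value was seen, reached -1. Rim CPM was above interior CPM in 8 of 8 sections for 147 of the 245 higher calls, against 281 of all genes tested (2.32%), and below it in 8 of 8 for 56 of the 161 lower calls, against 163 of all genes (1.34%). Single sections moved the counts of calls: without aged section 3 there were 443 higher and 463 lower calls, without young section 1 156 and 33, without young section 2 132 and 27, and without aged section 2 141 and 41. In spots, more cells of a type and more RNA per cell cannot be told apart.

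The list of surface epithelium markers moved toward the rim almost as a whole. Of its 16 genes 15 were tested, and 13 rose at the rim and none fell, with a median log2 fold change of 1.87. Their summed level was 571 ± 314 CPM at the rim against 230.4 ± 88.9 CPM in the interior (SD, n = 8) and was higher at the rim in every section. In young sections the sums were 342, 396, 818 and 519 CPM at the rim against 179, 183, 342 and 346 CPM inside. In aged sections they were 420.0, 1218, 603 and 252 CPM against 178, 140.2, 319.7 and 155 CPM. The gap was widest in aged section 2, at 1218 against 140.2 CPM. The tested members that did not pass were Gpm6a, a neuronal and mesothelial membrane glycoprotein, with 1.24, and Lgr5, a receptor for R-spondins, with -0.01.

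Upk3b, a uroplakin that marks mesothelial cells (chromosome 5, 136038496 to 136046487, build mm10), was at 52.8, 31.4, 104 and 59.9 CPM at the rim of young sections 1 to 4 and at 61.9, 214, 45.7 and 24.8 CPM at the rim of aged sections 1 to 4. In the interior it was at 9.57, 6.39, 17.9 and 28.1 CPM in the young and at 25.2, 6.30, 23.4 and 16.6 CPM in the aged sections. The rim was higher in each section, and only the lowest rim value, that of aged section 4, fell within the interior range. The log2 fold change was 2.11 ± 0.34 (SE), with an adjusted p of 0.0044. Without aged section 2, whose rim stood far above the others, it was 1.69, and with rim spots missing at least 2 neighbours it was 2.29.

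Krt19, a keratin of simple epithelia (chromosome 11, 100140810 to 100148665), gave much the same picture. Its rim values were 22.4, 33.5, 96.4 and 52.0 CPM in young and 73.7, 198, 66.7 and 23.8 CPM in aged sections. Its interior values were 7.27, 6.27, 20.9 and 23.5 CPM in young and 27.2, 6.17, 16.6 and 9.70 CPM in aged sections. Each section was higher at the rim, with the largest gap again in aged section 2, and the log2 fold change was 2.15 ± 0.30 (adjusted p = 0.0023). It was 1.74 without aged section 2.

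Other surface genes rose by similar amounts. Lhx9, a homeobox factor needed for the gonad to form (chromosome 1, 138825186 to 138848577), was at 27.8 ± 31.7 CPM at the rim against 5.51 ± 3.65 CPM inside (SD, n = 8), a log2 fold change of 2.14 ± 0.35 (adjusted p = 0.0044). The wide SD of the rim came with a value of 102 CPM in aged section 2, the other sections lying between 7.95 and 38.3 CPM. Lgals7, a galectin of stratified and surface epithelia (chromosome 7, 28863853 to 28866284), was at 43.8 ± 45.4 against 9.87 ± 4.84 CPM, with a log2 fold change of 1.96. Muc16, the membrane mucin known as CA125, changed by 2.03, and its binding partner mesothelin, Msln, by 1.64. Upk1b, another uroplakin, changed by 1.96 and Bnc1, a zinc finger factor of epithelia and mesothelium, by 1.94 (adjusted p = 0.041). Msln and Bnc1 were higher at the rim in 7 of 8 sections, Lhx9, Lgals7, Muc16 and Upk1b in 8 of 8.

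Wt1, a transcription factor of mesothelium, surface epithelium and granulosa cells, had a smaller change and a much tighter spread. It was at 89.8 ± 25.1 CPM at the rim and 47.7 ± 14.9 CPM inside (SD, n = 8). Its rim values were 100.4, 76.7, 112 and 75.0 CPM in young and 71.9, 126.5, 105 and 50.9 CPM in aged sections, against 51.9, 53.6, 69.7 and 48.3 CPM and 31.9, 31.5, 63.4 and 31.5 CPM in the interior. All 8 sections were higher at the rim, though the ranges of the 2 zones overlapped, and the log2 fold change was 0.88 ± 0.12.

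**Figure D2:**
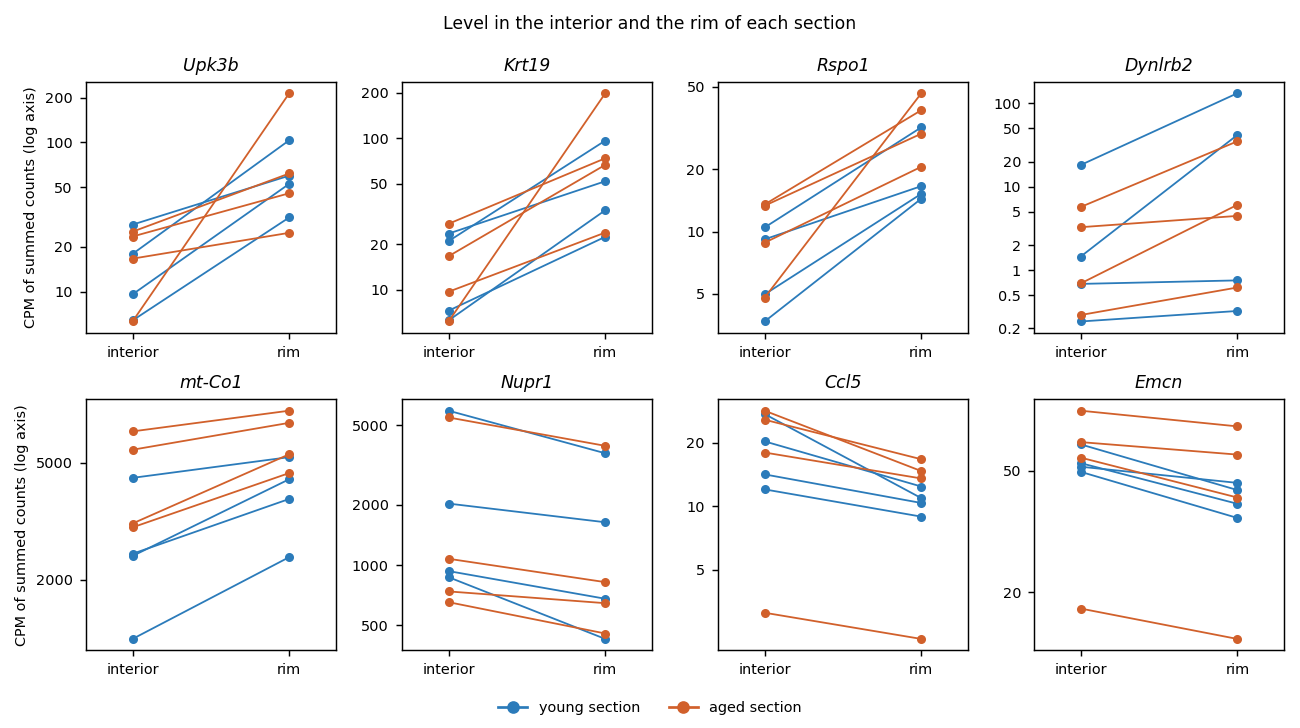
Level of 8 genes in the interior and at the rim (CPM of summed counts, log axis), 1 line per section, young and aged in separate colours. Upk3b, Krt19, Rspo1, Dynlrb2 and mt-Co1 go up from interior to rim in each section, and Nupr1, Ccl5 and Emcn go down. Apart from mt-Co1, moving 1 way in 8 of 8 sections was a condition for naming these genes. Dynlrb2 was below 1 CPM in both zones of young sections 1 and 4 and aged section 1, where its direction rests on few counts.

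Keratins and claudins accounted for most of the rise in the list of epithelial junction and keratin genes, which shares Krt7, Krt8, Krt18, Krt19 and Cdh1 with the surface list. Of 15 tested, 7 rose and none fell, with a median of 0.56. Krt18 was at 40.8 ± 22.6 CPM at the rim and 10.7 ± 7.62 CPM inside (log2 fold change 1.87 ± 0.31). Krt8, the partner of Krt18, changed by 0.78 and Krt7 by 1.74. The tight junction gene Cldn3 rose by 1.72 ± 0.20 (18.0 ± 11.9 against 5.21 ± 2.88 CPM, adjusted p = 0.00046) and Cldn15 by 1.41. Cldn10, a claudin outside the list, rose by 1.70. Junction genes of the list that did not pass included Jup, at -0.02, Tjp1, at 0.01, and Dsp, at 0.16 on the log2 fold change scale. Epcam, the epithelial adhesion molecule (chromosome 17, 87635979 to 87651129), is in the junction and the oviduct lists. It was at 17.5, 46.2, 69.5 and 32.4 CPM at the rim of young and 34.1, 114, 58.5 and 18.2 CPM at the rim of aged sections, against 5.09 to 16.7 CPM inside, so the zones did not overlap. Its log2 fold change was 2.13 ± 0.24, with an adjusted p of 0.00046.

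In the Wnt and R-spondin list 2 of 13 tested genes rose and none fell, with a median of 0.17. Rspo1, an R-spondin that strengthens Wnt signalling and directs ovarian fate in the fetal gonad (chromosome 4, 124986430 to 125009099), was at 15.2, 14.4, 31.9 and 16.6 CPM at the rim of young sections and 29.7, 46.6, 38.6 and 20.6 CPM at the rim of aged sections. Inside it was at 4.97, 3.67, 10.5 and 9.17 CPM and at 13.3, 4.79, 13.5 and 8.83 CPM. Rim and interior values did not overlap over the 8 sections, and the log2 fold change was 1.63 ± 0.20 (adjusted p = 0.00065). Axin2, a target and inhibitor of the Wnt pathway, rose by 0.63 ± 0.12, from 10.9 ± 3.94 to 17.2 ± 4.998 CPM, higher in 8 of 8 sections. Outside the lists, Igfbp5, a secreted binding protein of insulin-like growth factors (chromosome 1, 72857932 to 72874884) named for its place in the second ring comparison, was at 177, 126, 214 and 261 CPM at the rim of young and 319.6, 279, 228 and 114 CPM at the rim of aged sections. Its interior values were 86.9, 44.3, 66.1 and 86.2 CPM and 225, 48.1, 73.3 and 48.1 CPM, and the log2 fold change was 1.44 ± 0.15. The zones overlapped only through the interior of aged section 1.

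In the complement list 2 of 13 tested rose, with a list median of 0.01. C3, the central complement protein, was at 166 ± 135 CPM at the rim against 78.1 ± 45.3 CPM inside (0.89 ± 0.20, higher in 6 of 8 sections), and Cd55, which protects cells from complement, changed by 0.70. In the interferon list, with 14 tested and a median of 0.00, Gbp2, an interferon-induced GTPase, rose by 1.45 ± 0.21 (93.4 ± 83.0 against 28.5 ± 6.51 CPM) and Ifi27l2a by 0.52. Bst2, a membrane tether induced by interferon, fell by 0.27 and was lower in 8 of 8 sections. Single called genes of other lists were Wfdc1, a secreted antiprotease (0.94 ± 0.16), Rarres2, the precursor of the chemoattractant chemerin (0.36), Agrn, a basement membrane proteoglycan (0.36), and Pdpn, a mucin-like protein of lymphatic endothelium and mesothelium (0.80 ± 0.15). The rest of the lymphatic list did not pass and its median was -0.11. Col4a2, a chain of basement membrane collagen, fell by 0.31. Fos, an immediate early gene, rose by 1.18 ± 0.27 but was higher in only 5 of 8 sections, and no other gene of the 16 tested in its list passed.

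The remaining strongest calls were Plet1, a surface protein of epithelial progenitors, and Prr15l, Lgals2 and Cybrd1. Plet1 was at 22.7 ± 20.7 CPM at the rim against 3.87 ± 3.23 CPM inside (2.43 ± 0.20, adjusted p = 2.9e-05). Its rim values ran from 1.94 CPM in young section 1 to 65.2 CPM in young section 2, each above that of its own interior, as the rule for naming required. Prr15l changed by 2.16 ± 0.32, Lgals2, a galectin, by 2.06 ± 0.30 and Cybrd1, a ferric reductase of the plasma membrane, by 1.63 ± 0.26. Over the 15 named genes of this direction, log2 ratios of rim over interior in single sections lay between 0.12 and 5.07, and 13 of the 15 had their highest ratio in aged section 2.

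Oviduct markers rose at the rim too, but in some sections far more than in others. Of 12 list genes 9 were tested, and 5 rose and none fell, with a median of 2.01: Dynlrb2, Ccdc153 and Tmem212, all linked to motile cilia, the secretory Ovgp1, and Epcam. Dynlrb2, a dynein light chain (chromosome 8, 116504974 to 116515915), was at 0.324, 132, 41.8 and 0.754 CPM at the rim of young and 0.619, 4.47, 35.1 and 6.08 CPM at the rim of aged sections. In the interior it was at 0.242, 18.2, 1.45 and 0.684 CPM and 0.290, 3.27, 5.72 and 0.693 CPM, and the log2 fold change was 2.74 ± 0.33 (adjusted p = 0.00066). With limma on the mean CPM per spot it was 1.45 and did not pass (adjusted p = 0.061). Young sections 2 and 3 and aged section 3 carried most of this signal, while young sections 1 and 4 and aged section 1 were below 1 CPM in both zones. Ovgp1 was likewise at 130.1 and 132 CPM at the rim of young sections 2 and 3, at 28.1 CPM in aged section 3 and at 1.92 to 3.39 CPM in the other sections.

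Summed over the list, oviduct markers were at 66.4, 1074, 479 and 84.4 CPM at the rim of young sections against 58.3, 186, 99.1 and 76.7 CPM inside. In aged sections the sums were 102, 197, 313 and 130.4 CPM against 69.8, 65.2, 111 and 67.3 CPM. The rim sum, which includes Epcam, was higher in 8 of 8 sections, but by little in young sections 1 and 4. The median log2 ratio of the tested members was 0.085 in young section 1 and -0.47 in young section 4. In the other sections it was 0.23 to 2.64. Without young section 2 the list's median log2 fold change was 0.55 in place of 2.01, and Dynlrb2 was then too low to be tested. The part of oviduct tissue in the rise of Epcam, Krt18 and Cldn3 was not tested. Upk3b and Rspo1 were higher at the rim also in young sections 1 and 4 and aged section 1, where Dynlrb2 stayed below 1 CPM.

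Markers of the other tissues that touch the ovary showed no called change. None of 10 smooth muscle genes passed (median 0.14), nor any of 4 tested fat cell genes (median 0.13). The summed fat cell markers ranged from 74.8 to 833 CPM at the rim and from 116 to 485 CPM inside, higher at the rim in 5 of 8 sections. None of 12 tested stromal fibroblast genes (median 0.14) and none of 14 fibrillar collagen and cross-linking genes (median 0.07) passed.

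Mitochondrially encoded transcripts were higher at the rim. Of 12 tested 10 rose and none fell, with a median of 0.52. mt-Co1, a subunit of cytochrome oxidase, was at 5224, 3765, 4394 and 2386 CPM at the rim of young and 6834, 5343, 7516 and 4612 CPM at the rim of aged sections. Inside it was at 4440.3, 2449, 2408 and 1257 CPM and 5535, 3105, 6390.3 and 3013 CPM. Each rim was above its own interior, although sections differed from one another by more than the zones did, and the log2 fold change was 0.55 ± 0.09 (adjusted p = 0.0044). Among its partners mt-Co3 changed by 0.65, mt-Atp6 by 0.67 and mt-Cytb by 0.45. As a share of the UMIs, mitochondrially encoded transcripts took 2.02% ± 0.73 at the rim and 1.45% ± 0.81 inside (SD, n = 8). The difference was 0.565 percentage points, in the same direction in 8 of 8 sections (exact two-sided sign-flip permutation test, p = 0.0078, the smallest that 8 sections allow; adjusted p = 0.039 over 5 measures).

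Cytosolic ribosomal protein genes were shifted by less. Of 82 tested 7 rose and none fell, with a median of 0.20 and a positive value in 76. Rps27 changed by 0.58, Rpl9 by 0.39 and Rps21 by 0.28, and reads of such genes can be split with processed copies. Their share of the UMIs was 16.6% ± 3.34 at the rim against 14.5% ± 3.01 inside (SD, n = 8), higher in 7 of 8 sections, and did not pass after adjustment (exact sign-flip permutation test, p = 0.031, adjusted p = 0.078). Depth did not differ beyond its spread: the median spot had 16745 ± 7708 UMIs at the rim and 16635 ± 5611 inside (exact sign-flip permutation test, n = 8, p = 0.719, adjusted p = 0.805), and 5050 against 5076 genes. Gm42418, a long RNA gene that overlaps ribosomal RNA sequence, rose by 0.53 ± 0.11. The part of RNA quality in the mitochondrial difference was not tested.

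Follicle cell lists moved little as lists. Of 14 tested granulosa genes only Kctd14 rose (50.4 ± 30.6 against 25.9 ± 15.4 CPM, 0.91 ± 0.08, higher in 8 of 8 sections), and the list median was -0.09. Among 8 theca genes, Gli1 and Ptch1, the transcription factor and the receptor of the Hedgehog pathway through which follicles act on theca, rose by 0.56 and 0.34, and the median was 0.21. Both were higher at the rim in 8 of 8 sections. Gli1 was at 24.5 ± 13.4 CPM at the rim and 16.3 ± 4.37 CPM inside, and the highest rim value, 53.1 CPM, was that of young section 1. Of 12 tested oocyte genes only Dppa3, a maternal factor, passed (0.69 ± 0.17), and the median was 0.31.

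Of the 12 corpus luteum genes 1 fell at the rim and none rose, with a median log2 fold change of -0.36 and no value above 0. The called gene was Hsd11b1, an enzyme that regenerates active glucocorticoid (-0.96, adjusted p = 0.038). The list median was -0.66 within young sections, with 7 genes called lower, and -0.14 within aged sections, with 0 called. No member was called for a difference between the ages. Akr1c18 was at 1970.2, 1329, 4641 and 8086 CPM at the rim of young and 1536, 3207, 2759 and 9270.2 CPM at the rim of aged sections. Inside it was at 5704, 3889.8, 4594 and 7604 CPM and 2265, 4258, 3768 and 10459 CPM, so the rim was lower in 6 of 8 sections (-0.58 ± 0.17, adjusted p = 0.073). Star, which carries cholesterol into mitochondria, had a value of -0.53, Cyp11a1, the side-chain cleavage enzyme, -0.40 and Hsd3b1, which makes progesterone, -0.31, and none of these passed. The summed luteal level was 28291 ± 12126 CPM at the rim against 35580.0 ± 11287 CPM inside and was lower at the rim in 7 of 8 sections. None of 18 cholesterol synthesis and uptake genes passed or was positive (median -0.30), and none of 12 tested steroid synthesis genes passed (median -0.27, with 2 of them positive). Within young sections alone 4 of the cholesterol genes and 5 of the steroid genes were called lower, and within aged sections 0 of either.

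Vessel and immune genes contributed several of the lower calls. Emcn, the endothelial sialomucin endomucin (chromosome 3, 137341067 to 137432185), was at 45.7, 43.3, 39.0 and 35.0 CPM at the rim of young and 70.0, 40.9, 14.0 and 56.6 CPM at the rim of aged sections. Inside it was at 51.6, 61.1, 53.0 and 49.7 CPM and 78.8, 55.3, 17.7 and 62.2 CPM. Every rim was below its own interior (-0.36 ± 0.07, adjusted p = 0.013), but without young section 2 the adjusted p was 0.059. Egfl7, a secreted endothelial protein, was the other endothelial gene of 12 that fell (-0.29), and the list median was -0.16. Within young sections the endothelial median was -0.29, with 5 genes called lower. Within aged sections it was 0.07, with 8 of 12 genes above 0 and 0 called. No member was called for a difference between the ages. Rgs5 fell by 0.42 among 6 pericyte genes (median -0.27). Arhgef15, an endothelial exchange factor outside the lists, fell by 0.54.

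Ccl5, a chemokine of T and natural killer cells (chromosome 11, 83525778 to 83530518), was at 10.4, 8.93, 12.4 and 10.9 CPM at the rim of young and 16.7, 14.7, 2.34 and 13.6 CPM at the rim of aged sections, against 14.2, 12.03, 20.3 and 27.4 CPM and 25.8, 28.5, 3.12 and 18.0 CPM inside. It was lower at the rim in each section, with a log2 fold change of -0.72 ± 0.12 (adjusted p = 0.0051). Aif1, the macrophage protein Iba1, fell by 0.51 and Cd68, a lysosomal protein of macrophages, by 0.38. Cd68 was the called gene among 11 tested of the macrophage list (median -0.21, with -0.33 in young and -0.01 in aged sections). Among 8 tested genes of antigen presentation on MHC class II, the invariant chain Cd74 fell by 0.42 and the protease Ctss by 0.41, with a median of -0.29, while none of 11 MHC class I genes passed (median -0.04).

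Nupr1, a small nuclear protein of the stress response (chromosome 7, 126623249 to 126630861), was at 428, 679.8, 1639 and 3623 CPM at the rim of young sections and 456, 823, 646 and 3946 CPM at the rim of aged sections. Inside it was at 871, 935, 2031 and 5912 CPM and 654, 1077, 739.7 and 5470.0 CPM. The sections of capture area 4 had the highest levels in both zones, and each section was lower at its rim (-0.53 ± 0.08, adjusted p = 0.0027). Ucp2, a mitochondrial carrier, was at 322 ± 41.4 CPM at the rim and 414 ± 57.1 CPM inside (SD, n = 8), with a log2 fold change of -0.37 ± 0.06. Mmp19, a matrix metalloproteinase, fell by 0.52, Bik, a promoter of cell death, by 0.52 and Mcoln1, a lysosomal ion channel, by 0.44. Hao2, a peroxisomal oxidase, fell by 0.38, Abhd5, a co-activator of triglyceride breakdown, by 0.36 and Alg14, an enzyme of N-glycan assembly, by 0.37. Caskin1 and Gm19705 fell by 0.44 each and Tom1l1, an endosomal adaptor, by 0.36. Of 22 alternative settings, Abhd5 passed in 10, Bik in 15 and Gm19705 and Tom1l1 in 16 each, with the same direction in all. Log2 ratios of the 15 named lower genes ran from -1.33 to -0.05 in single sections.

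**Figure D3:**
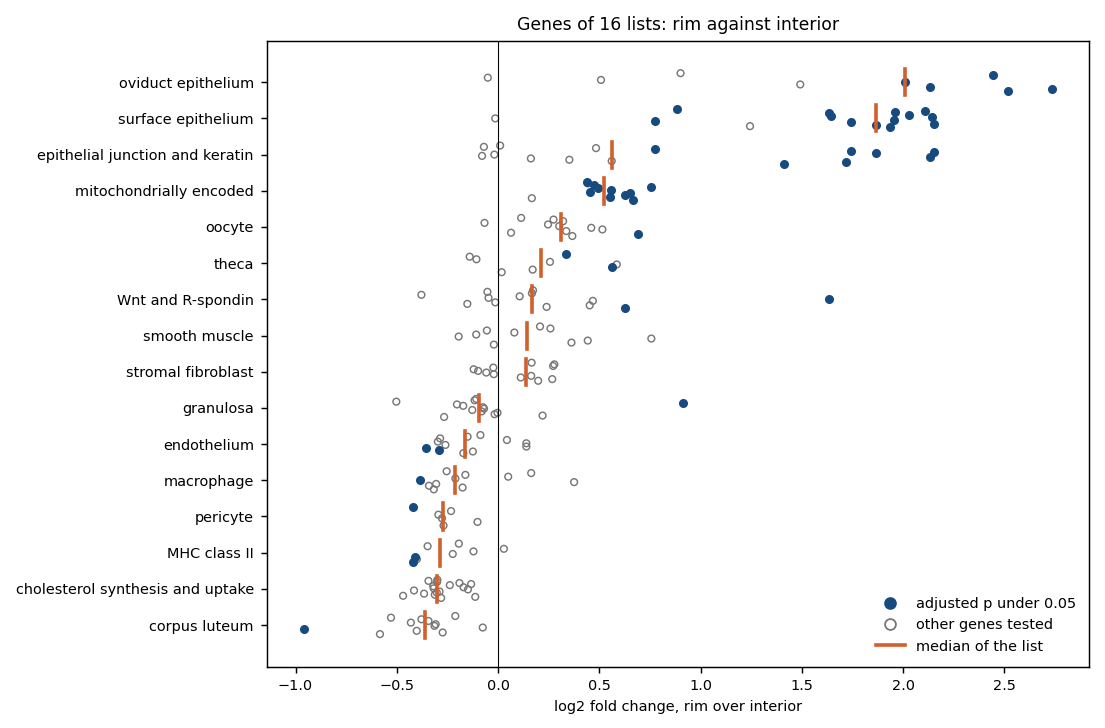
Log2 fold change of rim over interior for the tested members of 16 gene lists, 1 point per gene, filled where the adjusted p was under 0.05, with a bar at the list median. Surface and oviduct epithelium have medians of 1.87 and 2.01, and corpus luteum has a median of -0.36 with no member above 0.

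The surface transcripts were found in more rim spots, also at equal depth. After thinning each spot to 3000 UMIs, which left out 75 rim and 129 interior spots of lower depth, Upk3b had at least 1 UMI in 13.7% ± 7.91 of rim spots and 3.63% ± 1.57 of interior spots (SD, n = 8). Krt19 was found in 14.6% ± 8.84 against 3.72% ± 1.89 and Lgals7 in 9.81% ± 7.55 against 2.61% ± 1.02. All 3 shares were higher at the rim in 8 of 8 sections (exact sign-flip permutation test, p = 0.0078, adjusted p = 0.03125 over 12 genes). Before thinning the shares were 31.7% against 12.6% for Upk3b, 34.3% against 12.7% for Krt19 and 26.6% against 11.3% for Lgals7. All rim and interior spots then had median depths of 18057 and 17667 UMIs, and the spots kept for thinning 19262 and 18310.

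The other 9 transcripts tested this way did not pass. Ovgp1 was in 5.13% of rim and 2.67% of interior spots and Adipoq in 0.379% and 0.0431%, the latter mostly through aged section 3. Among transcripts of cells of the ovary, Inha was in 87.5% and 87.0% of spots, Akr1c18 in 89.9% and 92.1%, the theca enzyme Cyp17a1 in 30.8% and 28.4%, Zp3 in 6.13% and 6.08%, the smooth muscle myosin Myh11 in 20.9% and 24.1%. The plasma cell gene Jchain was in 5.87% and 4.21% and the globin Hba-a1 in 10.1% and 7.76%.

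Rim spots on the outer contour were set against rim spots that touch only a hole, which may be a tissue-marked position without counts. This comparison was chosen after the rim results were seen and could be made in 7 sections, where an exact test cannot go below p = 0.0156. Upk3b was at 92.9 ± 84.0 CPM on the outer contour and 11.9 ± 9.08 CPM beside holes (SD, n = 7), higher outside in 7 of 7 sections (exact sign-flip permutation test, p = 0.0156, adjusted p = 0.0625). Krt19 was at 85.2 ± 79.7 and 10.7 ± 9.22 CPM, again in 7 of 7. Rspo1 was at 25.3 CPM outside and 21.8 CPM beside holes, and Hba-a1, a globin of red blood cells, at 29.6 CPM outside and 123 CPM beside holes, higher outside in 2 of 7. None of these differences passed after adjustment. With the outer contour alone as the rim, the log2 fold change was 2.28 for Upk3b and 2.34 for Krt19.

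The second ring, interior spots next to a rim spot, was compared with the spots deeper inside. Of 11700 genes tested, 33 were higher in the second ring (0.282%) and 31 lower (0.265%). This comparison uses no rim spot but shares its interior spots with that of rim and interior, so the values are given side by side only. Without aged section 3 the counts were 204 and 169, and without young section 2 they were 12 and 3. Igfbp5 was higher by 0.93 ± 0.08 in the second ring (adjusted p = 1.1e-05) and by 1.44 at the rim, Epcam by 1.28 and 2.13, Kctd14 by 0.92 and 0.91, Cyp2s1, a cytochrome P450, by 0.98 and 1.23. Krt19 was higher by 1.25 (adjusted p = 0.036). Upk3b (1.40, adjusted p = 0.061) and Rspo1 (1.03, adjusted p = 0.056) did not pass there.

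Globin genes were higher one layer in, though not in each section. Hba-a1 was higher in the second ring by 1.299 ± 0.18 (adjusted p = 0.0055), against a log2 fold change of -0.09 for rim over interior, and Hbb-bs by 1.09 and Hbb-bt by 1.24, so that 3 of 3 tested red cell genes were called. Reads of such globin copies can be split between them. Hba-a1 was not higher in the second ring of aged section 3 (5.91 against 6.41 CPM deeper inside) or aged section 4 (65.6 against 65.9 CPM). Over 18 alternative settings its log2 fold change ran from 0.083 to 1.51, and it passed in 15. In the second ring Cyp4f14 fell by 0.71, Maob, a monoamine oxidase, by 0.71, 4930486L24Rik by 0.65, A730049H05Rik by 0.61 and 4833422C13Rik by 0.56.

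Over rings 1, 2, 3 and 4 and deeper, counted inward from the rim, Krt19 was at 70.8 ± 57.5, 23.8 ± 18.3, 16.3 and 7.02 CPM on average, and the first ring was the highest in 8 of 8 sections. Upk3b was at 74.3, 27.2, 20.1 and 6.96 CPM, with the first ring highest in 6 of 8 sections. Wt1 declined more evenly, with 89.8, 64.1, 43.9 and 38.1 CPM, and fell at each step in 7 of 8 sections. Igfbp5 went from 215 to 126, 78.5 and 60.7 CPM. Hba-a1 went from 43.0 to 89.9, 65.3 and 25.0 CPM. In the other direction Akr1c18 was at 4099.7, 4612, 4908 and 6000.3 CPM and Nupr1 at 1530.1, 1997, 2139.8 and 2322 CPM. These ring means describe the same spots as the tests above and were not tested on their own.

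**Figure D4:**
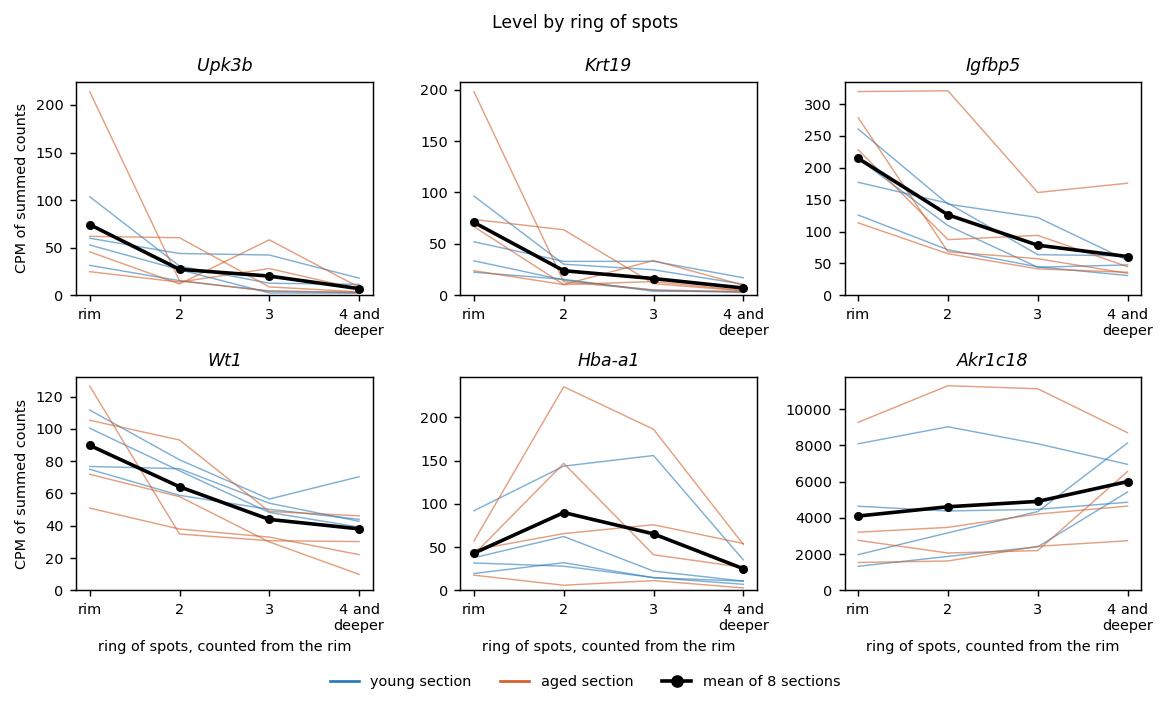
Level of 6 genes (CPM of summed counts) by ring from the rim inward, 1 line per section in its age's colour and the mean of 8 sections in black. Upk3b and Krt19 drop steeply after the first ring, Wt1 and Igfbp5 more evenly, Hba-a1 has its highest mean (89.9 CPM) in the second ring, and Akr1c18 is highest inside.

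Whether the rim differs in another way in young than in aged ovaries was tested as an interaction. Of 12119 genes, 8 had a higher rim-to-interior ratio in aged sections (0.066%) and 18 a lower one (0.149%), together 0.215%, with no adjusted p below 0.0379. None of the 406 genes called for rim against interior was among them. At a share of 0.215% few would be found among 406 genes in any case, so this is no result about those genes. Within the young sections 410 genes were higher at the rim (3.38%) and 446 lower (3.68%), together 7.06%, and within the aged sections 50 were higher (0.413%) and 10 lower (0.0825%), together 0.495%. These counts are not a test of a difference between the ages. The surface epithelium list had medians of 1.54 in young and 2.28 in aged sections, with 11 and 8 members called, and its lowest adjusted p of the interaction was 0.292.

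All 18 genes of lower ratio in aged sections were above 0 in the young and below 0 in the aged sections on the log2 scale, and several are made by granulosa cells. Of 14 tested granulosa genes 4 were called: Nppc, the peptide that holds oocytes in meiotic arrest (difference -2.08), Inhbb, a subunit of activin and inhibin (-1.59), the activin antagonist Fst (-1.37) and the nuclear receptor Nr5a2 (-0.83). Fst was at 77.4, 84.3, 134 and 53.9 CPM at the rim of young sections against 64.3, 53.2, 61.0 and 40.3 CPM inside. In aged sections it was at 240.3, 6.39, 122 and 91.6 CPM against 256.1, 23.7, 245 and 181 CPM. The rim was thus higher in 4 of 4 young sections and lower in 4 of 4 aged ones. Granulosa markers summed over the list followed this order, at 4093, 3274, 4069.9 and 3126 CPM against 3818, 2474, 2216 and 2906 CPM in young, and at 5808, 1272, 4250.5 and 4000.1 CPM against 7217, 1488, 7151 and 6390.1 CPM in aged sections. The list's medians were 0.42 in young and -0.71 in aged sections.

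Genes of cell division, which is frequent in granulosa cells of growing follicles, gave a like pattern. Of 20 tested, Mki67 (-1.46), Cdc20 (-1.42), Cdk1 (-1.07) and Ube2c (-1.04) had a lower ratio in aged sections, and the medians were 0.36 in young and -0.39 in aged sections. Mki67 was at 47.0, 28.5, 14.2 and 14.7 CPM at the rim of young sections against 40.6, 18.4, 9.15 and 12.7 CPM inside, and at 4.34, 8.31, 36.3 and 4.21 CPM against 13.3, 8.56, 66.5 and 15.4 CPM in aged sections. Hmgb2, a chromatin protein of dividing cells, had a difference of -0.92. Nap1l5, a histone chaperone relative (chromosome 6, 58905233 to 58907076), had one of -1.51 ± 0.21: its log2 fold change was 0.28 in young and -1.23 in aged sections. Nap1l5 was at 143, 22.4, 92.5 and 103 CPM at the rim of aged sections against 253, 33.9, 262 and 321 CPM inside. Plxnc1, a semaphorin receptor, had a difference of -1.14. The part of the granulosa content of the zones in these differences was not tested.

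Among the 8 genes of higher ratio in aged sections, the members of the cell type lists were Myh11, 1 of 10 smooth muscle genes, and Ccl21a, 1 of 6 lymphatic genes, while none of 12 endothelial genes was called. Podxl, a sialomucin of vessels and mesothelium (chromosome 6, 31519488 to 31563981), was at 36.6, 27.6, 61.0 and 29.4 CPM at the rim of young sections against 30.9, 24.6, 44.9 and 35.4 CPM inside. In aged sections it was at 66.3, 60.7, 77.3 and 56.1 CPM against 29.0, 22.9, 27.0 and 35.3 CPM. The aged rims were thus well above their interiors and the young ones close to theirs, with log2 fold changes of 1.12 and 0.15 and a difference of 0.97. Myh11, of smooth muscle, had a difference of 0.91, the lymphatic chemokine Ccl21a one of 0.83, Ctla2a, a protease inhibitor, one of 1.05 and Icam1, an adhesion molecule, one of 0.90. Ecm1, a matrix glycoprotein, had a difference of 0.73 ± 0.13 (-0.42 in young, 0.31 in aged sections), Cyp2d22 one of 0.74 and the phosphatase Dusp1 one of 0.72. Without both sections of capture area 3, none of the 26 interaction calls was made (0 genes by edgeR in either direction, with 1236 at an unadjusted p under 0.05). The same held without aged section 3 or aged section 4 alone, while without young section 1 or aged section 1 only 2 genes of lower ratio were called.

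**Figure D5:**
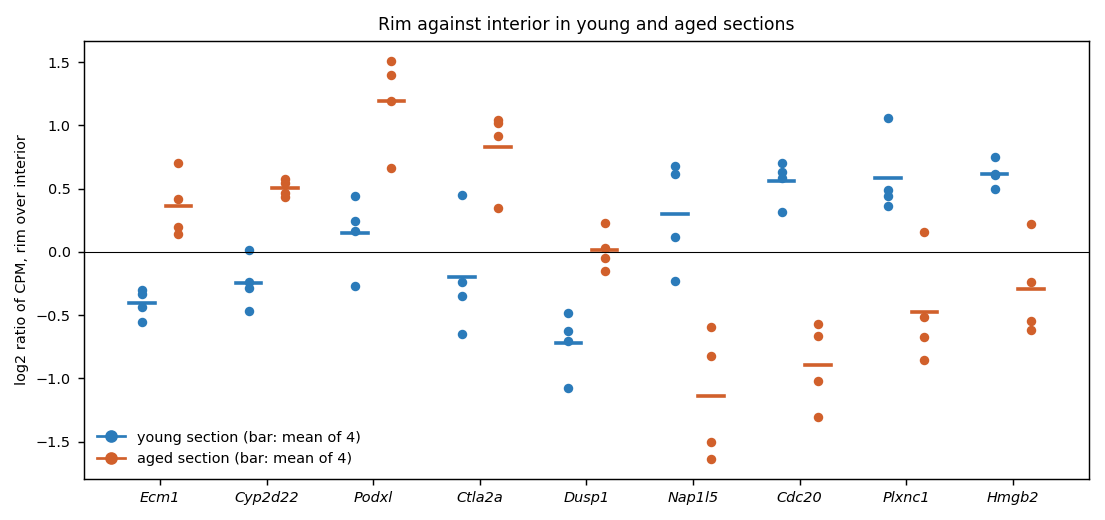
Log2 ratio of rim over interior by section for 9 genes called for a difference between the ages, young and aged side by side, with a bar at the mean of 4. For Podxl the aged sections lie above the young, and for Nap1l5 and Cdc20 they lie below.

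Measures of the spots were compared between the ages as well. The ribosomal share of UMIs was 3.61 percentage points higher at the rim in young sections and 0.57 points in aged ones, and mean UMIs per spot were higher at the rim by 0.15 in young and lower by 0.20 in aged sections on the log2 scale. Each difference had the smallest p that 4 against 4 sections allow (exact permutation test, p = 0.0286) and did not pass after adjustment (0.0714). Of 82 tested ribosomal protein genes 59 were called within the young sections, with a median of 0.35, and none within the aged ones, with a median of 0.05. The part of depth in the differences between the ages was not tested.

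Aged rims were also tested against young rims directly. Of 11765 genes none passed by edgeR (0%), the lowest adjusted p being 0.348, with 538 at an unadjusted p under 0.05, and DESeq2 called 4 higher and 6 lower in the aged. The genes of smallest p are given as values. Fabp4, the fatty acid binding protein of fat cells and capillaries (chromosome 3, 10204088 to 10208576), was at 9.72, 9.27, 23.05 and 12.4 CPM at young rims and 61.9, 37.7, 123 and 123 CPM at aged rims, with no overlap (2.69 ± 0.38). In aged section 3, whose spots held the most Adipoq, Fabp4 was at 9.36 CPM inside, against 43.3 to 116 CPM inside the other aged sections. Mt3, a metallothionein (chromosome 8, 94152607 to 94154146), was at 74.8 to 143 CPM at young and 16.0 to 37.4 CPM at aged rims (-1.90). Ttyh2, a chloride channel relative, was at 48.2 to 56.9 CPM at young and 85.0 to 132 CPM at aged rims (1.03), and Itih2, which binds hyaluronan, had a value of -2.06. Among the surface genes the age effect at the rim was 0.59 ± 0.60 for Upk3b and 0.83 ± 0.30 for Rspo1, and neither passed.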

How the data were processed

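Ovary sections of 4 young and 4 aged mice were measured on 4 spatial capture areas. The authors deposited raw UMI counts per gene and spot, made with Space Ranger 1.2.1 on build mm10, per the submitters' processing notes. The deposited position files, per the file headers and values, hold other quantities: a tissue mark and grid and image positions of each spot. The gene annotation behind the counts is not stated by these sources. The files list 4263 spots as tissue, of which 72 have no column of counts and were not used.

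The young and the aged section of an area were split at the widest gap between spots along the axis the labels name. A k-means split moved 11 spots. Counts were summed over the rim and over the interior of each section (CPM divides by the sum alone) and tested with edgeR 4.0.16 (quasi-likelihood, TMM scaling, filterByExpr, R 4.3.3), with the section as a block for comparisons within sections and Benjamini-Hochberg adjustment at 0.05. An adjusted p in the text without a further name is edgeR's. Spot measures and shares of spots were compared with exact two-sided sign-flip permutation tests over all sign patterns (numpy 2.4.6). The thinning probabilities used scipy 1.17.1. The edgeR tests of rim against interior, of its difference between ages and of age at the rim were also run on simulated counts. The simulation took its means, library sizes and dispersions from these data, and its outcome is not given here. Gene positions were matched by symbol to GENCODE M21 (mm10). Sections and not spots are the replicates, and UMI counts cover counting error only.

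The members, gene lists and named genes were chosen with earlier results of these data known. Named genes were the 15 of highest and 15 of lowest fold change among those called, moving 1 way in 8 of 8 sections and at a mean of at least 10 CPM, the 5 of smallest p in each direction at a mean of at least 5 CPM in the other comparisons, and the leading members of 42 lists. Of the named genes 1 is not reported here. Lists with no called member and no sentence in the results held 1 to 20 tested genes each, with medians between -0.22 and 0.33. The contour and hole comparison, the ring means and the ages' difference in spot measures were added after the data were seen. Alternatives covered scaling, filter, tool, rim rule and each section left out (DESeq2 1.42.0, limma 3.58.1). The labels number areas and not animals, so same-numbered young and aged sections share an area, and their deviations correlated at 0.0783, -0.00584, -0.132 and 0.177 over genes.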

Additional observations from a re-analysis of the deposited data

Results flagged for a closer look

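In 15 of 57 sets of 8 section values, 1 section stood apart from the other 7 by more than a critical share of the range (Dixon's test at the 95% level). Chance alone flags about 1 set in 20, and the sets are not independent, since the sections and many of the cells are shared. Of the 15, 10 were the log2 ratio of rim over interior in aged section 2: Upk3b 5.07, Krt19 4.98, Lhx9 4.98, Prr15l 4.88, Lgals2 4.82, Epcam 4.16, Lgals7 4.10, Cybrd1 3.70, Rspo1 3.26 and Gbp2 3.16. In the same section the share of spots with Lgals7 was 23.7 percentage points higher at the rim. In other sections the log2 ratio of Bik was -1.12 in young section 4 and that of Gm19705 was -1.33 in young section 1. In aged section 3 the share of spots with Adipoq was 2.94 points higher at the rim and that with Zp3 was lower, with a difference of -9.84 points.

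The rim-to-interior ratio differed between the ages, by edgeR's interaction test at an adjusted p under 0.05, for 9 of the genes named by the rule. The difference, aged minus young on the log2 scale, was 1.05 for Ctla2a, 0.97 for Podxl, 0.74 for Cyp2d22, 0.73 for Ecm1 and 0.72 for Dusp1. It was -1.51 for Nap1l5, -1.42 for Cdc20, -1.14 for Plxnc1 and -0.92 for Hmgb2.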

How the results depend on the processing

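For rim against interior, the unfiltered test called 754 higher and 932 lower genes, many of them with few counts, and limma on mean CPM per spot called 117 and 75. Lower calls numbered 359 without both sections of area 3, 54 with neighbours taken from all tissue-marked spots, 73 with the outer contour only and 106 with at least 2 neighbours missing. Leaving out each section in turn gave 132 to 443 higher and 27 to 463 lower calls. Without the section block 3 genes were higher and 0 lower, as differences between animals then enter the error. Of the 406 calls, 398 were kept under RLE scaling, 315 under DESeq2 and 133 under limma on mean CPM. DESeq2 kept 2 of the 26 calls for the difference between the ages and 13 of the 64 of the second ring. For the difference between the ages, higher and lower calls were 0 and 0 with library size alone as scaling, without both sections of area 3, with at least 2 neighbours missing, with limma on mean CPM, and without the section block. They were 5 and 5 with DESeq2, 176 and 244 without a filter and 0 and 1 on the outer contour. Higher calls were 5 with RLE scaling and 4 with tissue-marked neighbours, lower calls 36 without the second ring in the interior, and leaving out single sections gave 0 to 14 and 0 to 24. For age at the rim, the unfiltered test called 1 gene higher, DESeq2 4 higher and 6 lower, each section left out in turn 0, and the capture area as a replicate block 0 (510 at an unadjusted p under 0.05 by edgeR). For the second ring, calls were 11 and 67 with DESeq2, 295 and 463 unfiltered, 0 and 0 without the section block, 133 and 116 without area 3, 13 and 2 with tissue-marked neighbours, 13 and 1 on the outer contour, 57 higher with at least 2 neighbours missing, and 12 to 204 and 3 to 169 with single sections left out. With 7 sections the mitochondrial difference was 0.523 to 0.599 points, passing only without aged section 3 (adjusted p = 0.039, otherwise 0.078, exact permutation test), that of the ribosomal share 1.68 to 2.58, past the threshold at 2.58 without aged section 3, and the share differences 7.67 to 11.4 points for Upk3b, 8.49 to 12.1 for Krt19 and 4.84 to 8.04 for Lgals7, passing only without aged section 1 (adjusted p = 0.047, otherwise 0.0625, exact permutation test). With 7 sections that permutation test cannot go below p = 0.0156. These adjusted p values therefore followed from how many of the measures or genes reached that smallest p. A call lost or kept with 7 sections thus says nothing about the section left out. Without thinning the share differences of Upk3b, Krt19 and Lgals7 were 19.1, 21.6 and 15.4 points and no longer passed. Depth changed sign but stayed near 0 on the log2 scale: mean UMIs were at 0.0012 with tissue-marked neighbours and 0.0134 on the outer contour, where median UMIs were at 0.0238 and median genes at 0.0073. With single sections left out they ran from -0.0949 to 0.0193, -0.162 to 0.0339 and -0.0758 to 0.0205. Uncalled shares changed sign for Inha without thinning (-1.29), for Adipoq with single sections left out (-0.036, without aged section 3, to 0.409) and likewise for Zp3 (-0.64 to 1.47). The oviduct list median ran from 0.55 to 2.14 with single sections left out. No named gene of any comparison changed direction. Depth limits aged section 3 the most, and the design of 4 against 4 animals limits every comparison of ages.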
